A study of Mus musculus with 36 samples.

Results

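Embryoid bodies are aggregates of embryonic stem cells that leave pluripotency and form cells of several germ layers. RNA was sequenced from E14 mouse embryonic stem cells carried through this culture, in libraries labelled Rreb1 KO or WT and sampled at day 4 and at day 0. The experiment holds 8 of the 36 samples of the series, and 8 of its 20 RNA-seq libraries: 2 KO day 4, 2 KO day 0, 2 WT day 4 and 2 WT day 0. All 4 groups share the E14 background and the embryoid body treatment, and their own labels name no further treatment. The labels do not give the Rreb1 allele, the number of clones behind the KO libraries, or whether the 2 libraries of a group came from separate cultures. Loss of Rreb1 and any other difference between the KO and WT cell lines therefore cannot be told apart, and p-values measure the spread between libraries, which may be technical. KO and WT stand throughout for libraries labelled so.

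Rreb1 is a zinc finger transcription factor that binds Ras-responsive DNA elements, and the title of the series ties it to TGF-β and to the epithelial to mesenchymal transition, or EMT. In the mouse embryo, epiblast cells undergo an EMT at the primitive streak under Nodal, a TGF-β family ligand, and WNT and BMP signals. They then become mesoderm or definitive endoderm, and embryoid bodies form cells with the same genes. The comparison asks which day 4 changes depend on the genotype. For each gene, the day 4 minus day 0 difference of log2(normalised count + 1) was taken in KO and in WT, and the difference of changes is the KO value minus the WT value. A negative one means that a gene rose less, or fell more, in KO.

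The libraries held 19885697 to 29082712 reads over genes. Of 19834 genes in the table, 11 Y-linked genes were left out, and the 15221 with at least 10 normalised counts in at least 2 libraries were tested with limma at a Benjamini-Hochberg adjusted p under 0.05. Stem cell identity at day 0 was visible in both genotypes: Pou5f1, the Oct4 gene, had 20830.0 and 21350.0 normalised counts in KO day 0 libraries and 27993 and 28711 in WT day 0 libraries, and Nanog, another pluripotency factor, had 17330.0 and 18478 in KO and 15941 and 16458 in WT. Rreb1 itself had 1920.0 and 1512 normalised counts in KO day 4 libraries, 2642 and 2830.0 in KO day 0 libraries, 1482 and 1586 in WT day 4 libraries and 1085 and 1019 in WT day 0 libraries. Its reads were thus higher in KO than in WT at day 0, by 1.38 ± 0.10 (SE) on the log2 scale, and 0.15 ± 0.10 apart at day 4. Counts over the whole gene cannot show whether a transcript is disrupted, so they do not check the KO label. Rreb1 fell in KO (log2 change -0.68, adjusted p = 3.28e-05) and rose in WT (0.54, adjusted p = 0.000218).

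With limma on all libraries, the day 4 response differed by genotype in more genes than not. That majority was not reached with edgeR or DESeq2, or with no filter on low values, where 8394 of 19823 genes were called. Nor was it reached without KO day 0 replicate 2, WT day 4 replicate 2 or either WT day 0 library. The difference of changes passed the test for 8477 of 15221 genes, which is 55.7% of those tested. It was above 0 for 4123 genes (27.1%) and below 0 for 4354 (28.6%), and it exceeded 2 log2 units in either direction for 1466. By day 4, 9131 genes (60%) had changed in KO and 9599 (63.1%) in WT. Per-gene changes had an SD of 0.941 log2 units in KO and 1.166 in WT, while the median gene moved by -0.02 in KO and by 0.00 in WT. With so many genes called, a count is informative through its direction and size more than through passing the test. The ranges of the day 4 minus day 0 differences between library pairs did not overlap between KO and WT for 70.5% of the tested genes.

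Each gene was then placed by its own tests. A change was lost in KO where WT changed, KO did not pass the test and the difference of changes did: this held for 2564 genes (16.8% of those tested), 1418 of them rising and 1146 falling in WT. A change was reduced, the same way but smaller in KO, for 906 (5.95%), and for 506 with DESeq2. A change was gained for 2158 genes (14.2%) that changed in KO alone by these tests. Another 717 (4.71%) had an enlarged change, the same way and further in KO. That count of 717 was 426 with edgeR and 332 with DESeq2, and 432 to 465 when any 1 of the WT libraries was left out (432 and 447 without WT day 0 replicate 1 and 2, 443 and 465 without WT day 4 replicate 1 and 2). For 1969 genes (12.9%) the 2 genotypes moved in opposite directions, 1030 rising in WT and 939 falling in WT, and DESeq2 gave 1087 such reversed genes. A kept change, called in both genotypes the same way with a 95% interval of the difference inside 1 log2 unit either side of 0, held for 1945 genes (12.8%). A lost call is not proof of no change in KO. For 2069 of the 2564 lost genes the 95% interval of the KO change lay within 1 log2 unit of 0.

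**Figure D1:**
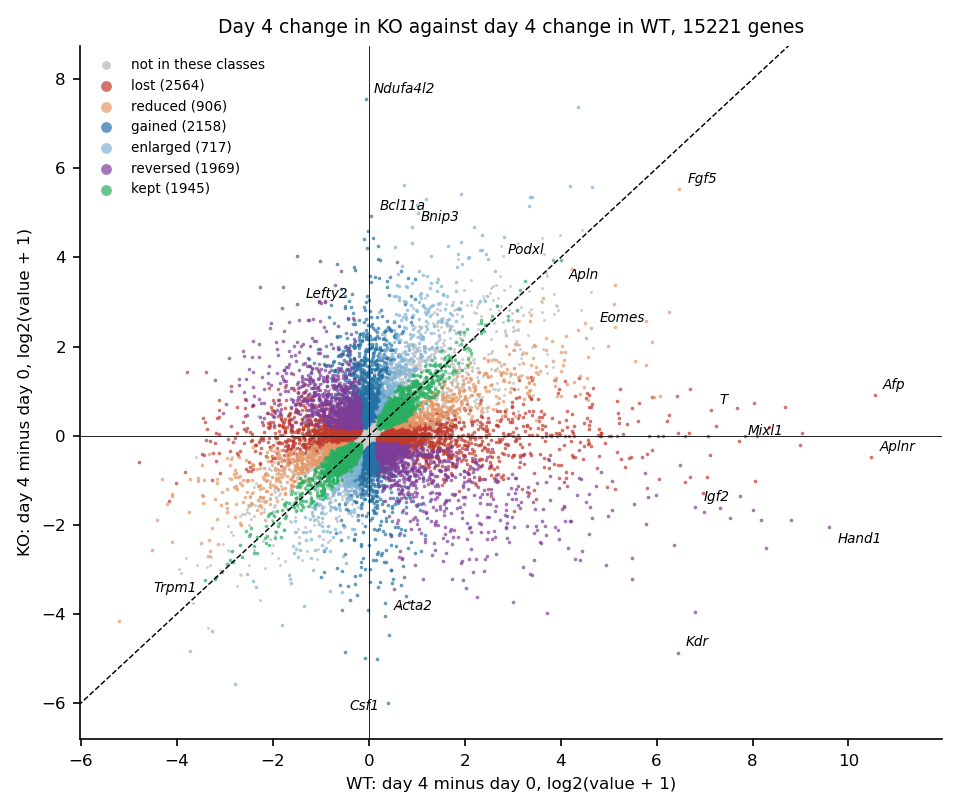
Day 4 minus day 0 difference in KO (y axis) against the same in WT (x axis), both on the log2(normalised count + 1) scale, for the 15221 genes tested, coloured by class, with the dashed line where both changes are equal. Genes such as T and Mixl1 lie far to the right near 0 on the y axis, Kdr and Hand1 lie to the right and below 0, and Ndufa4l2 lies at the top near 0 on the x axis.

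Primitive streak genes mostly lost their rise in KO. In a streak and nascent mesoderm list of 18 tested genes, 3 rose and 1 fell in KO, with a median log2 change of -0.03, while 18 rose in WT, with a median of 4.64. Over all tested genes, 29.1% rose and 30.9% fell in KO, and 32.3% rose and 30.8% fell in WT. Of the 18 streak genes, 14 were lost, against 16.8% of all tested genes. The difference of changes was called below 0 for 17 of 18 and above 0 for none, against 28.6% and 27.1% of all tested genes; those 2 shares stand behind every such count of a list given here. The count below 0 was 14 with edgeR and 14 with DESeq2. The count above 0 was 0 as well for limma at an unadjusted p under 0.05, for edgeR and for DESeq2. Aplnr and Mesp1, for example, passed the filter through WT day 4 alone, so they had to differ. The same held for Afp, Ttr, Tdo2 and Bmp5 in lists below. The lists were also chosen with earlier results of these data known. All list counts given here therefore describe the tested genes and support nothing further. The median difference was -5.17, or -4.83 with genes absent from a group set at their detection bound, against -0.01 over all genes. T, the T-box factor brachyury that defines the streak, had 19.2 and 17.7 normalised counts in KO day 4 libraries, 12.7 and 11.5 in KO day 0 libraries, 907 and 1646 in WT day 4 libraries and 6.95 and 8.48 in WT day 0 libraries. The KO libraries of both days lay within a narrow low range, and the WT day 4 libraries stood far above it. For T the difference of changes was -6.57 ± 0.41 (SE, adjusted p = 1.61e-08, limma). In bulk RNA, fewer cells of a type and less RNA per cell cannot be told apart.

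Evx1, a homeobox factor of the posterior streak, had 2.26 and 5.91 normalised counts in KO day 4 libraries, 3.39 and 2.87 in KO day 0 libraries, 404 and 769 in WT day 4 libraries and 1.98 and 0 in WT day 0 libraries. Its KO levels sat near the detection limit at both days, and its WT rise was not seen there. An antisense gene lies beside Evx1, and the library kit does not mark strand, so reads of the pair cannot be told apart. T and Evx1 are shown with the 250 bases upstream of their RefSeq start (GRCm38.p6, both on the + strand, T at chr17:8434173-8434422 and Evx1 at chr6:52313248-52313497), because neither passed the test of a rise in KO and both windows hold a T-box letter string. Capitals mark matches, on either strand, to AGGTGT, the core that T-box factors bind, or CTTTGA, the core that TCF and LEF factors bind.
T: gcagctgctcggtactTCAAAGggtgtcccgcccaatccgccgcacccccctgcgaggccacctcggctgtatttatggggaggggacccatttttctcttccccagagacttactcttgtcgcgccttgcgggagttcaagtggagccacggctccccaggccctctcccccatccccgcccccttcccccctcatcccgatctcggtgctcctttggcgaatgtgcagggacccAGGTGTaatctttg
Evx1: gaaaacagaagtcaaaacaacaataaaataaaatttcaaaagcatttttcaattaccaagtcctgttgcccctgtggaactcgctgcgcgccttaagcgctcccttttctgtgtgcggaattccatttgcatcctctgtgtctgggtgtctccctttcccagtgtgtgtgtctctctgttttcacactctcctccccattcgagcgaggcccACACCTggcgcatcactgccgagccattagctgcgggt
AGGTGT was in 4 of the 14 streak promoters in the RefSeq table (28.6%), against 12% of all 27025 promoters and 10.1% of the 11242 promoters of tested genes. CTTTGA was in 3 of the 14 (21.4%), against 14% of all promoters and 10.9% of tested ones. Among the 1037 promoters of genes with a lost rise, the shares were 9.26% for AGGTGT and 10.1% for CTTTGA. These are letter matches, and the motif strings do not overlap each other.

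Mixl1, a homeobox factor of streak cells, had 10.2 and 11.8 normalised counts in KO day 4 libraries, 12.7 and 11.5 in KO day 0 libraries, 515 and 1135 in WT day 4 libraries and 4.96 and 1.21 in WT day 0 libraries. At day 0 Mixl1 was thus a little higher in KO than in WT (1.85 log2, adjusted p = 0.00201), and by day 4 the order had turned. Eomes, the T-box factor needed for both mesoderm and endoderm, behaved differently: it rose in KO to 702 and 711, against 137 and 127 at KO day 0, while WT libraries had 1945 and 3225 at day 4 and 87.3 and 114 at day 0. The KO rise of Eomes was 2.41 log2 (adjusted p = 6.46e-08), with a difference of changes of -2.23 ± 0.26 (SE, adjusted p = 6.82e-06). Fgf8, a streak FGF ligand, was the other streak gene with a reduced rise, reaching 6.79 and 12.8 in KO day 4 libraries against 438 and 507 in WT day 4 libraries. Sp5, a WNT target, fell in KO and rose in WT. Gsc, a homeobox factor of the anterior streak, had 1.13 and 4.93 normalised counts in KO day 4 libraries and 2.54 and 6.69 in KO day 0 libraries, against 61.5 and 68.1 in WT day 4 libraries and 13.9 and 10.9 in WT day 0 libraries (difference of changes -2.86 ± 0.73 SE, adjusted p = 0.00436).

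The apelin pair split between classes. Aplnr, the apelin receptor of nascent mesoderm, had no reads in either KO day 4 library and 0 and 0.956 normalised counts in KO day 0 libraries. It reached 1059 and 1907 in WT day 4 libraries and had no reads in WT day 0 libraries. Its day 4 level was at least 938-fold lower in KO than in WT, taking 3 reads over the KO day 4 group as the floor. Apln, the gene of its peptide ligand, rose in both: KO libraries had 181 and 139 at day 4 and 8.48 and 10.5 at day 0, WT libraries had 370.0 and 455 at day 4 and 22.8 and 26.6 at day 0, and the difference of changes was -0.07 with a 95% interval of -0.75 to 0.61. Apln was the 1 streak gene in the kept class. Mesp1, a factor of the earliest cardiovascular progenitors, had 1.13 and 0 normalised counts in KO day 4 libraries, 0 and 0.956 in KO day 0 libraries, 248 and 427 in WT day 4 libraries and 1.98 and 2.42 in WT day 0 libraries.

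**Figure D2:**
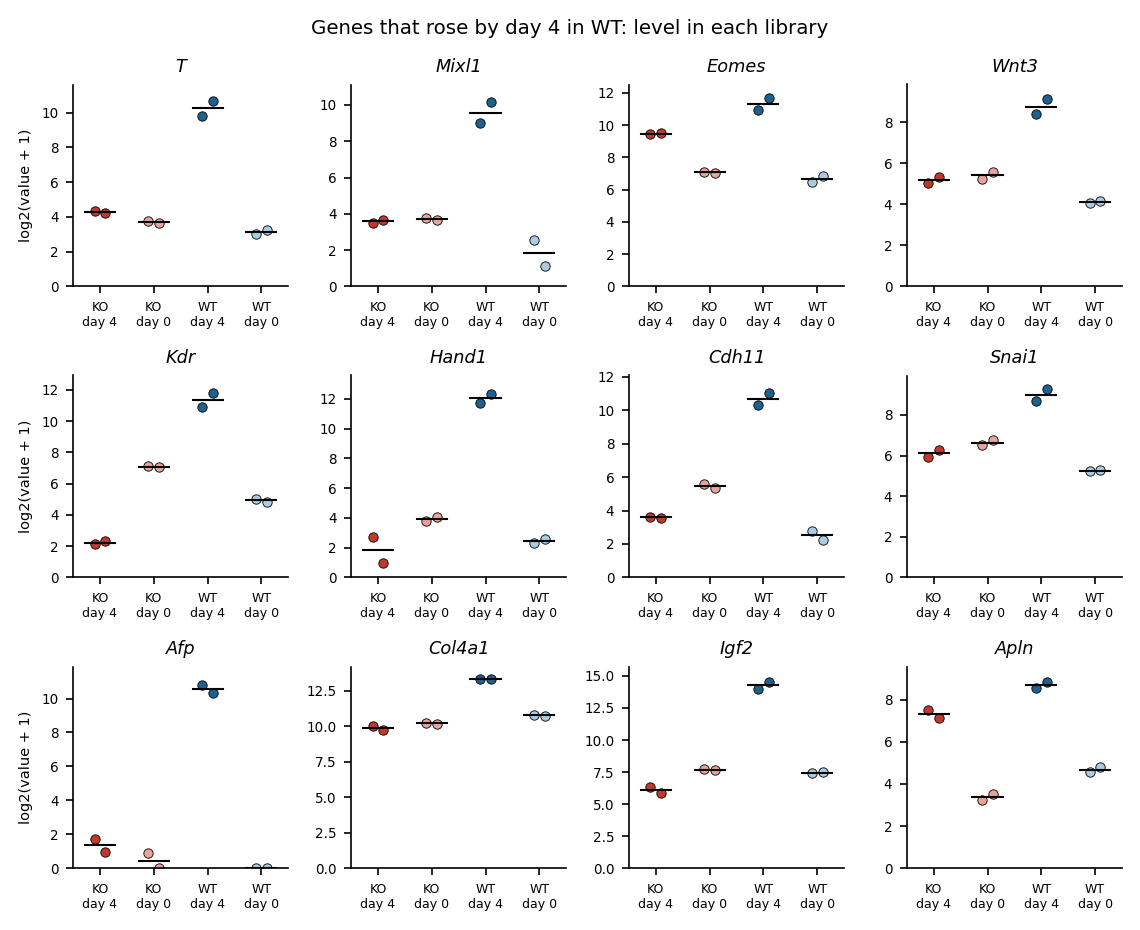
Level of 12 genes in each library on the log2(normalised count + 1) scale (y axis starting at 0), by group from left to right KO day 4, KO day 0, WT day 4 and WT day 0. Points are the 2 libraries of a group and the bar is their mean. In all 12 panels the WT day 4 libraries are the highest; Apln is the panel in which KO day 4 rises by a like amount, and Eomes the one in which KO rises by less.

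Ligands and feedback genes of the signals that pattern the streak were tested next. In a WNT list of 37 tested genes, the difference of changes was below 0 for 22 and above 0 for 6, with a median of -1.98. Of these 37, 11 rose in KO and 28 in WT, against 29.1% and 32.3% of all tested genes, and 15 were lost, against 16.8%. Wnt3, the ligand that starts streak formation in the mouse, had 31.7 and 38.4 normalised counts in KO day 4 libraries, 36.5 and 46.9 in KO day 0 libraries, 338 and 552 in WT day 4 libraries and 15.9 and 17.0 in WT day 0 libraries. Axin2, a feedback target of canonical WNT signalling, had a KO change of 0.19 log2 that did not pass (adjusted p = 0.127) and rose in WT by 1.55 (adjusted p = 1.13e-08). Rspo3, which amplifies WNT signals, and Lgr5, a receptor for such R-spondins, also had rises called lost.

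Among the 6 WNT genes that went the other way were nuclear effectors and a secreted inhibitor. Lef1, a nuclear partner of β-catenin, had 1832 and 1985 normalised counts in KO day 4 libraries, 325 and 412 in KO day 0 libraries, 1793 and 2084 in WT day 4 libraries and 1316 and 1353 in WT day 0 libraries. The day 4 groups overlapped, and at day 0 the KO minus WT difference was -1.86 log2. Tcf7, a related factor, had the same pattern, with a difference of changes of 1.54 ± 0.12 (SE, adjusted p = 1.16e-07). Sfrp2, a secreted WNT binding protein, rose in KO by 2.00 log2 (adjusted p = 1.09e-09), while its WT change of 0.24 did not pass (adjusted p = 0.0559).

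In a list of BMP ligands, receptors and targets the difference of changes was below 0 for 17 of 25 genes and above 0 for 4, with a median of -1.06. The 4 above 0 were Chrd and Acvr1, which rose in KO alone by these tests, Bmpr1b and Smad7. Bmpr1b rose in KO and fell in WT, and Smad7 fell in both and less in KO. Bmp4, a ligand that drives posterior mesoderm, fell to 179 and 155 normalised counts in KO day 4 libraries, against 849 and 906 in KO day 0 libraries, and rose to 937 and 1293 in WT day 4 libraries, against 509 and 464 in WT day 0 libraries. The genotypes thus moved apart from levels that were already higher in KO at day 0 (0.85 log2, adjusted p = 5.73e-05). Id3, a direct BMP target, had a KO change of 0.02 log2 that did not pass (adjusted p = 0.88) and rose in WT by 3.41 (adjusted p = 1.23e-11). Id1 and Id2, relatives of Id3, rose in both genotypes and by less in KO, with differences of changes of -1.33 ± 0.18 and -0.42 ± 0.12 (SE). Bmp5 had no reads in KO day 4 or WT day 0 libraries, 0.848 and 0 normalised counts in KO day 0 libraries and 112 and 168 in WT day 4 libraries.

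Genes of lateral plate, cardiac and blood-forming mesoderm followed the streak genes, and several moved below their KO day 0 level. In the lateral plate and cardiac list, 21 of 29 tested genes had a difference of changes below 0 and 3 above 0 (median -3.97). There, 3 rose and 11 fell in KO, against 22 that rose and 1 that fell in WT. Of all tested genes, 29.1% rose and 30.9% fell in KO, and 32.3% rose and 30.8% fell in WT. Hand1, a factor of extraembryonic and lateral mesoderm, had 5.66 and 0.986 normalised counts in KO day 4 libraries, 12.7 and 15.3 in KO day 0 libraries, 3334 and 5264 in WT day 4 libraries and 3.97 and 4.84 in WT day 0 libraries. The KO day 4 libraries differed from each other near the detection limit, and the WT day 4 libraries stood far above every other group. Its difference of changes was -11.64 ± 0.62 (SE, adjusted p = 3.31e-09). Tbx20 and Msx2, further factors of these tissues, were also reversed (-7.31 and -6.60), and Foxf1, Hand2 and Pdgfra were lost. The 3 above 0 were Myl7, Hopx and Tnnt2. Myl7 rose further in KO, Hopx rose in KO alone by these tests, and neither change of Tnnt2 passed. For Myh6 and Myh7, neighbouring and similar myosin genes of the heart, neither the difference of changes (-0.08, 95% interval -0.56 to 0.39, and -0.43, interval -1.69 to 0.82) nor the WT change passed the test.

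Kdr, the VEGF receptor that marks blood and endothelial precursors, had 3.395 and 3.94 normalised counts in KO day 4 libraries, 138 and 133 in KO day 0 libraries, 1898 and 3619 in WT day 4 libraries and 30.8 and 27.9 in WT day 0 libraries. Every pair of groups was separate: the KO minus WT difference was -9.14 log2 at day 4 (adjusted p = 3.27e-12) and 2.17 at day 0 (adjusted p = 3.07e-06). For Kdr the difference of changes was -11.31 ± 0.36 (SE, adjusted p = 3.52e-11). In the blood and endothelium list, 14 of 25 tested genes had a difference below 0 and 4 above 0, with a median of -1.53. DESeq2 put 10 below 0 and 2 above 0, and a filter of 50 normalised counts left 17 genes, 8 of them below 0. Tal1 and Lmo2, blood factors, were lost (-4.35 and -3.63), and Runx1 and Gata2 were reversed (-4.40 and -3.52). Etv2, which acts upstream of both lineages, rose to 6.79 and 10.8 in KO day 4 libraries, against 2.54 and 2.87 in KO day 0 libraries, and to 81.7 and 154 in WT day 4 libraries, against 16.9 and 14.5 in WT day 0 libraries. Pecam1 and Tek were on this list too, and both fell in both genotypes, by less in KO. Pecam1 is also a surface marker of stem cells.

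Unc5c, Pcdh7, Rgs5 and Cdh11, a mesenchymal cadherin, were the other reversed rises that the naming rule gave (-10.79, -10.70, -9.69 and -10.07). Unc5c, Pcdh7 and Rgs5 each had a group with 3 reads or fewer, so these differences depend on the pseudocount. Unc5c, a netrin receptor, had 0 and 1.97 normalised counts in KO day 4 libraries, 10.2 and 7.65 in KO day 0 libraries, 1049 and 2005 in WT day 4 libraries and 8.93 and 1.21 in WT day 0 libraries. Pcdh7, a protocadherin, had 5.66 and 6.90 in KO day 4 libraries, 22.9 and 29.6 in KO day 0 libraries, 811 and 1070.0 in WT day 4 libraries and 0.992 and 1.21 in WT day 0 libraries. Both had WT day 4 levels far above every other group, and KO day 4 levels below KO day 0. The WT day 4 libraries themselves differed for mesoderm genes, replicate 2 being higher than replicate 1 for T, Mixl1, Kdr, Hand1 and Cdh11. Without WT day 4 replicate 2 the count of called differences was 7106, and without replicate 1 it was 7619, against 8477 with all libraries.

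Endoderm genes were tested as 2 lists, which share Gata6, Sox17 and Foxa2. In the definitive endoderm list, 9 of 14 tested genes had a difference of changes below 0. The 3 above 0 were Trh and Otx2, which rose further in KO, and Prdm1, which rose in KO and fell in WT. The median was -2.43, or -3.72 with a filter of 50. In the primitive and visceral endoderm list, 12 of 37 genes rose and 15 fell in KO, while 35 rose in WT. Of all tested genes, 29.1% rose and 30.9% fell in KO, and 32.3% rose in WT, so the KO rises lay near their share. Differences of changes were below 0 for 32 and above 0 for 1 (median -3.25). Afp, alpha-fetoprotein, had 2.26 and 0.986 normalised counts in KO day 4 libraries, 0.848 and 0 in KO day 0 libraries and 1757 and 1277 in WT day 4 libraries, with no reads in WT day 0 libraries. Its WT day 4 level was at least 927-fold higher than its WT day 0 level. Ttr and Apoa4, which encode secreted transport proteins, and Cubn, an endocytic receptor, also rose more in WT. Cubn reached 53.2 and 72.0 in KO day 4 libraries, against 25.4 and 23.9 in KO day 0 libraries, and 5651 and 4862 in WT day 4 libraries, against 223 and 224 in WT day 0 libraries. Most basement membrane genes of the list had a difference of changes below 0. Lamb1, a laminin chain, rose further in KO than in WT (0.51) and was the 1 gene of the list above 0. Lamc1, its partner, was a gained fall (-0.83). Col4a1, a collagen IV chain, had a log2 change of -0.30 in KO (adjusted p = 0.00799) and 2.58 in WT (adjusted p = 1.29e-11), and Lama1, another laminin chain, one of -3.16 in KO and 0.72 in WT.

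Gata6, an endoderm factor, was lost, with 31.7 and 24.6 normalised counts in KO day 4 libraries, against 429.6 and 617 in WT day 4 libraries. Sox17, another, was reversed, with 1.13 and 3.94 in KO day 4 libraries, against 241 and 300.3 in WT day 4 libraries. Amot, which encodes a junction and Hippo pathway protein, rose to 397 and 382 in KO day 4 libraries, against 203 and 219 in KO day 0 libraries, and to 11651 and 18413 in WT day 4 libraries, against 230.2 and 206 in WT day 0 libraries. Amot had the largest difference among reduced rises that met the naming rule (-5.18 ± 0.21 SE, adjusted p = 3.11e-10). Not all endoderm genes took part: Cldn6, Hnf4a and Rhox5 were kept, and Cldn6 rose by 1.71 log2 in KO and 1.79 in WT. Hnf4a was kept in size but not in level, with 24.9 and 21.7 in KO day 4 libraries and 10.2 and 13.4 in KO day 0 libraries, against 277 and 254 in WT day 4 libraries and 135 and 113 in WT day 0 libraries.

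EMT transcription factors mostly moved in opposite directions. Of 13 tested, 9 had a difference of changes below 0 and 2 above 0, with a median of -3.25 (-2.13 with a filter of 50). Of the 13, 7 were reversed, against 12.9% of all tested genes. Among these 7, Tcf3 alone rose in KO and fell in WT. The 2 above 0 were 1 with DESeq2 and without KO day 4 replicate 1, KO day 0 replicate 2, WT day 4 replicate 1 or 2, or WT day 0 replicate 2. Snai1, a repressor of epithelial genes at the streak, had 59.98 and 76.9 normalised counts in KO day 4 libraries, 89.9 and 106 in KO day 0 libraries, 415 and 616 in WT day 4 libraries and 36.7 and 37.5 in WT day 0 libraries. KO libraries were above WT at day 0 and below WT at day 4. Snai2 and Zeb2, which act in EMT too, had that same order at both days, with differences of changes of -4.64 and -5.23. Zeb1 fell in KO (adjusted p = 2.74e-09; difference of changes -3.03 ± 0.24 SE) with a WT change of 0.03 that did not pass (adjusted p = 0.873). Twist1 rose in both and less in KO, and Prrx2 was kept at -0.03 (95% interval -0.85 to 0.79).

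Mesenchymal and matrix genes leaned to opposite sides of WT on the 2 days. At day 4, 23 of 31 tested genes were lower in KO and 0 higher, against 28.3% and 27.8% of all tested genes. The count higher was 1 for limma at an unadjusted p under 0.05, 1 for edgeR and 1 for DESeq2. At day 0, 19 were higher in KO and 6 lower, against 33.9% and 33.3%. Differences of changes were below 0 for 26 and above 0 for 4, with a median of -2.90, or -1.79 with a pseudocount of 5. The summed level of the list was 50689 and 42325 in KO day 4 libraries, 65518 and 66989 in KO day 0 libraries, 66160 and 84953 in WT day 4 libraries and 54444 and 48892 in WT day 0 libraries. Vim, the intermediate filament vimentin, fell in KO to 529.6 and 448, against 3453 and 3296 at KO day 0, and stood at 3193 and 4173 in WT day 4 libraries and 3236 and 3314 in WT day 0 libraries. Cdh2, N-cadherin, had 143 and 159 in KO day 4 libraries, 279.9 and 305 in KO day 0 libraries, 1592 and 2670.0 in WT day 4 libraries and 100.2 and 95.7 in WT day 0 libraries. Col1a1, a fibrillar collagen, had 39.6 and 25.6 in KO day 4 libraries, 266 and 191 in KO day 0 libraries, 1219 and 1541 in WT day 4 libraries and 56.6 and 72.7 in WT day 0 libraries. Both fell in KO and rose in WT.

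Epithelial genes showed no such shift as a list. Of 32 tested genes, 12 had a difference above 0 and 8 below 0, with a median of 0.07, and 19 rose in each genotype. Of all tested genes, 29.1% rose in KO and 32.3% in WT. Cdh1, E-cadherin, had 13793 and 12569 normalised counts in KO day 4 libraries, 12854 and 13253 in KO day 0 libraries, 15178 and 15090.0 in WT day 4 libraries and 14837 and 13806 in WT day 0 libraries. The 95% interval of its difference of changes was -0.28 to 0.14. Krt8, a keratin of simple epithelia that endoderm also makes, fell in KO (log2 change -1.90, adjusted p = 4.59e-10) and rose in WT (2.73, adjusted p = 1.04e-11). Epcam, an adhesion protein of stem cells and epithelia, went the other way, with a difference of 1.12 ± 0.12 (SE, adjusted p = 2.07e-06).

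Hox and Cdx genes, which set position along the body axis, had 26 of 28 tested members with a difference below 0 and 0 above 0. The count above 0 was also 0 for limma at an unadjusted p under 0.05, for edgeR and for DESeq2. The median was -4.26, -3.65 with absent genes at their bound and -2.71 with a pseudocount of 5. The other 13 members were too low to test, and a member that passed the filter through 1 group alone had to differ, so these counts describe the tested genes and support nothing further. A filter of 50 left 10 genes, 9 of them below 0. Cdx2, a posterior regulator of Hox genes, had 2.26 and 1.97 normalised counts in KO day 4 libraries, 5.94 and 4.78 in KO day 0 libraries, 284 and 553 in WT day 4 libraries and 0 and 1.21 in WT day 0 libraries. The WT day 4 libraries were far above the other groups for Cdx2, and the KO day 0 libraries lay above the other low groups. Hox clusters hold antisense genes whose reads an unstranded kit cannot separate.

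Imprinted genes, expressed from the allele of a single parent, rose in KO in 9 of 26 tested members and in WT in 18. Of all tested genes, 29.1% rose in KO and 32.3% in WT. The difference was below 0 for 14 and above 0 for 1 (2 with a pseudocount of 5), with a median of -0.41, or -0.67 without KO day 0 replicate 2. Igf2, a fetal growth factor, had 81.5 and 56.2 normalised counts in KO day 4 libraries, 209 and 206 in KO day 0 libraries, 16025 and 23968 in WT day 4 libraries and 169.7 and 180.5 in WT day 0 libraries. H19, the noncoding RNA next to Igf2, rose in both genotypes, to 179 and 120.2 in KO day 4 libraries and 3967 and 3139 in WT day 4 libraries, with a difference of changes of -3.20 ± 0.28 (SE). Peg10, a retrotransposon-derived gene of the placenta, had a KO change of 0.18 log2 that did not pass (adjusted p = 0.12) and rose in WT by 3.37 (adjusted p = 2.22e-12). Impact, a translation regulator, did not pass the test of the difference (95% interval -0.21 to 0.22).

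**Figure D3:**
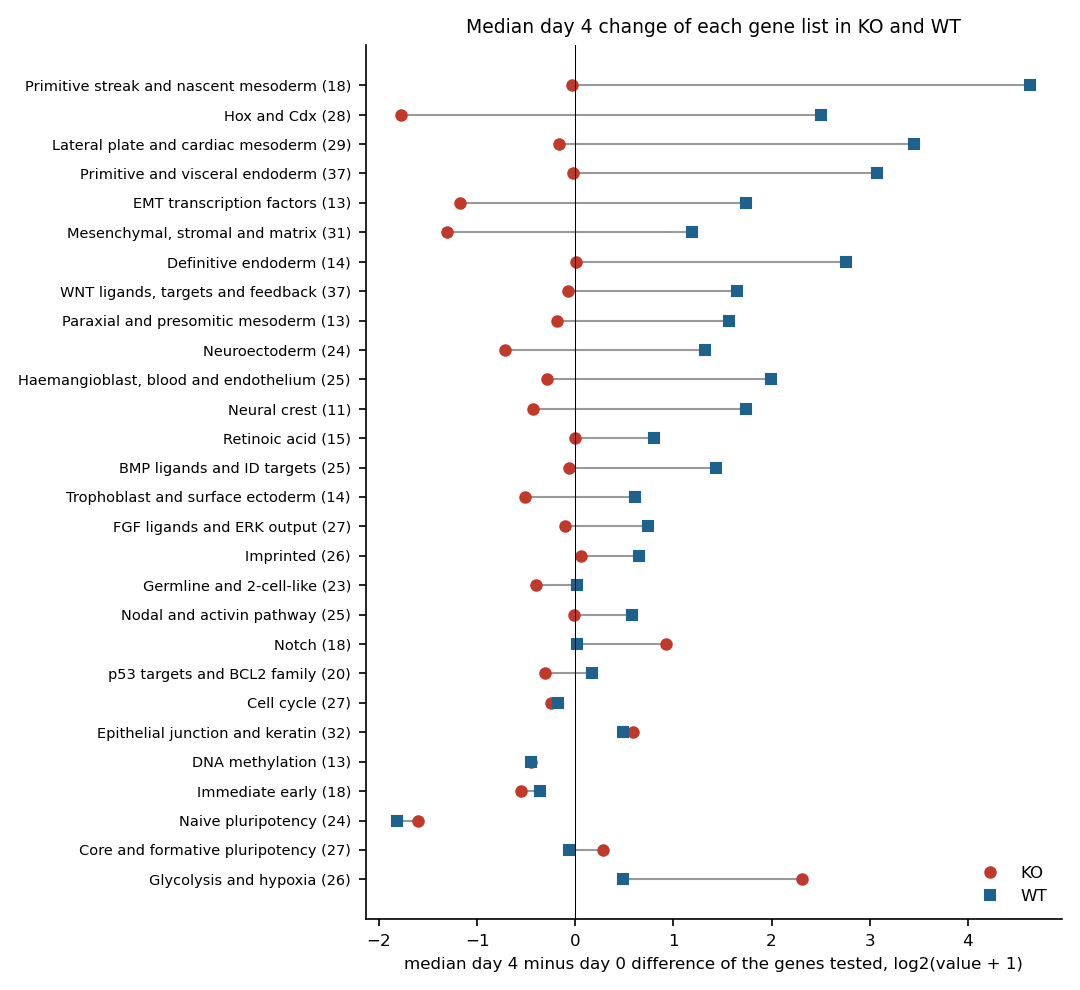
Median day 4 minus day 0 difference on the log2(normalised count + 1) scale (x axis) of the tested genes of 28 lists in KO (red circles) and WT (blue squares), ordered by the median difference of changes, with the number of tested genes in brackets. Streak, Hox, mesoderm and endoderm lists have WT medians far right of their KO medians, naive pluripotency medians lie close together at -1.60 in KO and -1.81 in WT, and glycolysis is the list whose KO median (2.31) is furthest right of its WT median (0.49).

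Naive pluripotency genes, which stem cells switch off as they differentiate, fell in both genotypes. Of 24 tested, 22 fell in KO and 22 fell in WT, against 30.9% and 30.8% of all tested genes. Median changes were -1.60 in KO and -1.81 in WT. Differences of changes were above 0 for 11 and below 0 for 6, and 7 were kept, against 12.8% of all tested genes. Klf4, a naive factor, had 625 and 530.3 normalised counts in KO day 4 libraries, 11312 and 12975 in KO day 0 libraries, 608 and 627 in WT day 4 libraries and 6019 and 5832 in WT day 0 libraries. The day 4 groups overlapped, and the KO day 0 libraries stood above the WT day 0 libraries. Esrrb, an orphan nuclear receptor of the naive network, fell less in KO, to 10905 and 10217 in KO day 4 libraries, against 4187 and 4032 in WT day 4 libraries. Tfcp2l1, another naive factor, had a log2 change of -1.94 in KO and -1.99 in WT, and Socs3, a feedback gene of LIF and STAT3, one of -2.88 in KO and -2.95 in WT.

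Core and formative pluripotency genes leaned the other way from mesoderm genes. Of 27 tested, 18 had a difference above 0 and 5 below 0, against 27.1% and 28.6% of all tested genes, with a median of 0.51. The count below 0 was 3 with edgeR, with DESeq2 and without WT day 4 replicate 1. Pou5f1 had 23459 and 26859 normalised counts in KO day 4 libraries and 20830.0 and 21350.0 in KO day 0 libraries, against 10361 and 10924 in WT day 4 libraries and 27993 and 28711 in WT day 0 libraries. It rose slightly in KO (log2 change 0.25, adjusted p = 0.0109) and fell in WT (-1.41, adjusted p = 1.31e-09). Fgf5, a ligand made by the formative epiblast, rose steeply in both, to 1378 and 1653 in KO day 4 libraries, against 26.3 and 38.2 in KO day 0 libraries, and to 2838 and 2379 in WT day 4 libraries, against 21.8 and 36.3 in WT day 0 libraries. Otx2 and Pou3f1, factors of the formative state, rose further in KO than in WT, with differences of 0.50 ± 0.11 and 1.95 ± 0.21 (SE). Dnmt3a and Dnmt3b, which lay down new DNA methylation, also rose further in KO (1.53 ± 0.11 and 0.91 ± 0.12).

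Nodal pathway genes did not move as a block: 9 of 25 had a difference above 0 and 11 below 0. Lefty2, a secreted inhibitor of Nodal that Nodal itself induces, had 5121 and 5727 normalised counts in KO day 4 libraries, 679 and 721 in KO day 0 libraries, 2785 and 2498 in WT day 4 libraries and 7408 and 7453 in WT day 0 libraries. It rose in KO and fell in WT, with a difference of changes of 4.44 ± 0.11 (SE, adjusted p = 5.45e-12). Lefty1, its close copy, had a difference of 4.40 ± 0.13 (SE). The 2 genes share sequence, and no source used here states how reads matching both were counted. Nodal fell in both, to 2360.0 and 2686 in KO day 4 libraries, against 3024 and 3249 in KO day 0 libraries, and to 1204 and 1354 in WT day 4 libraries, against 2310.0 and 2257 in WT day 0 libraries. Cer1, a Nodal inhibitor of endoderm, had no reads in any KO library or in WT day 0 libraries and 173 and 305 normalised counts in WT day 4 libraries. Tgfb1 and Tgfb2, TGF-β ligands, fell in KO and rose in WT (-2.23 ± 0.23 and -5.99 ± 0.46).

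Glycolysis and hypoxia genes rose together in KO from a low day 0 level. Of 26 tested genes, 25 rose in KO and 0 fell by day 4, against 16 that rose and 2 that fell in WT. Of all tested genes, 29.1% rose and 30.9% fell in KO, and 32.3% rose and 30.8% fell in WT. The count falling in KO was also 0 for limma at an unadjusted p under 0.05, for edgeR and for DESeq2. Differences of changes were above 0 for 22 and below 0 for 1, with a median of 1.92. At day 0, 23 of the 26 were lower in KO and 2 higher, against 33.3% and 33.9% of all tested genes. At day 4, 5 were lower and 6 higher, against 28.3% and 27.8%. The summed level of the list was 683010 and 577950 in KO day 4 libraries, 196730 and 193530 in KO day 0 libraries, 624640 and 560910 in WT day 4 libraries and 442410 and 444610 in WT day 0 libraries. The KO day 0 libraries were thus the low group, and KO day 4 replicate 1 was above replicate 2.

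Bnip3, a mitochondrial protein gene induced by low oxygen, had 12948 and 10048 normalised counts in KO day 4 libraries, 434 and 453 in KO day 0 libraries, 8891 and 7378 in WT day 4 libraries and 4293 and 4354 in WT day 0 libraries. Ldha, which turns pyruvate into lactate, had 42199 and 36769 in KO day 4 libraries, 3809 and 3894 in KO day 0 libraries, 63343 and 63483 in WT day 4 libraries and 36750.0 and 37115 in WT day 0 libraries. For both genes the KO day 0 libraries were the lowest and the other 3 groups lay closer together. The differences of changes were 3.78 ± 0.15 and 2.57 ± 0.11 (SE, adjusted p = 2.74e-10 and 3.45e-10). Ankrd37, an ankyrin repeat gene of the hypoxia response, had 130.1 and 126 in KO day 4 libraries, 24.6 and 18.2 in KO day 0 libraries, 415 and 363 in WT day 4 libraries and 145 and 128 in WT day 0 libraries. The 250 bases upstream of these 3 genes (RefSeq, GRCm38.p6: Bnip3 at chr7:138909507-138909756 and Ankrd37 at chr8:45999851-46000100 on the - strand, Ldha at chr7:46845554-46845803 on the + strand) are shown because the genes moved together and hold the core of the hypoxia response element. Capitals mark ACGTG on either strand, and CACGTG holds it on both.
Bnip3: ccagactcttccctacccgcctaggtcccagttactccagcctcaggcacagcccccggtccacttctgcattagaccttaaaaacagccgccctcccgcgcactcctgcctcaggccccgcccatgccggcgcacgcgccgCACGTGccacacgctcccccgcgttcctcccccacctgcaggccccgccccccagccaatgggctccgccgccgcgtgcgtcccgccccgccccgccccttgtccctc
Ldha: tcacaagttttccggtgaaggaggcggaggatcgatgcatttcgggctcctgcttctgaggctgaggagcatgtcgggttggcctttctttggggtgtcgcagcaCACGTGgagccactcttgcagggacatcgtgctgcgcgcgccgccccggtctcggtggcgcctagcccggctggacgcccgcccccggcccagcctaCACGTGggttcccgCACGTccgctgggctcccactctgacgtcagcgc
Ankrd37: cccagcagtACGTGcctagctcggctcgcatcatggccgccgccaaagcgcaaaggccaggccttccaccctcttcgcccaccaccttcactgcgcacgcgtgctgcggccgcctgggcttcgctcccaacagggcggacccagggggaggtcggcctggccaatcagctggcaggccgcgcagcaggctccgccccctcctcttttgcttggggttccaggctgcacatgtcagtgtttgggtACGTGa
ACGTG was in 11 of the 23 promoters of the list found in RefSeq (47.8%), against 16.6% of all 27025 promoters and 21.3% of the 11242 of tested genes. Among promoters of genes with an enlarged rise it was in 87 of 313 (27.8%), and among those of genes with a gained rise in 174 of 766 (22.7%).

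Of the enzymes, Slc2a1, a glucose transporter, Pfkl, Tpi1, Pgk1 and Pkm rose further in KO than in WT, with differences of 1.48, 2.60, 1.92, 2.06 and 2.01 log2. Pfkp and Hk1 rose in KO and fell in WT (2.96 and 1.79). Vegfa, an angiogenic growth factor that low oxygen also induces, did not follow: KO libraries had 3947 and 3850.0 at day 4 and 4262 and 3734 at day 0, WT libraries had 3070.0 and 2630.0 at day 4 and 2610.0 and 2659 at day 0, and the 95% interval of the difference was -0.39 to 0.11. Slc2a3, another glucose transporter, rose less in KO (-0.50 ± 0.18 SE, adjusted p = 0.0275). Eno1 was counted at 14.7 and 11.8 in KO day 4 libraries and 19.2 and 12.1 in WT day 4 libraries, a low value for a gene with near-identical copies, and is uncertain.

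Gained rises included further genes of metabolism and transcription. Ndufa4l2, a mitochondrial gene of the hypoxia response, had 2240.0 and 1567 normalised counts in KO day 4 libraries, 11.9 and 6.69 in KO day 0 libraries, 1054 and 789.9 in WT day 4 libraries and 964 and 944 in WT day 0 libraries. Its difference of changes of 7.62 ± 0.30 (SE, adjusted p = 2.74e-10) was the largest among gained rises that met the naming rule. For Bcl11a, a zinc finger factor, KO also passed WT by day 4. It had 483 and 470.1 in KO day 4 libraries and 18.7 and 11.5 in KO day 0 libraries, against 94.2 and 92.3 in WT day 4 libraries and 92.3 and 87.2 in WT day 0 libraries. A2m, a protease inhibitor, Gstm3, a glutathione transferase, and Aldoc, an aldolase, had KO minus WT differences of -0.42, 0.01 and 0.17 log2 at day 4, after day 0 differences of -4.67, -4.06 and -3.84. Fgf15, a ligand of neural and posterior tissue, was among the enlarged rises, with 1653 and 1934 in KO day 4 libraries and 48.4 and 40.2 in KO day 0 libraries, against 1199 and 1297 in WT day 4 libraries and 517 and 579 in WT day 0 libraries.

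Gained falls included genes of several tissues. Csf1, a macrophage growth factor, had 5.66 and 8.87 normalised counts in KO day 4 libraries, 562 and 485 in KO day 0 libraries, 112 and 143 in WT day 4 libraries and 104 and 88.4 in WT day 0 libraries. Acta2, smooth muscle actin, had 22.6 and 31.5 in KO day 4 libraries, 494 and 423 in KO day 0 libraries, 535 and 391 in WT day 4 libraries and 324 and 406 in WT day 0 libraries. Csf1 was high in KO at day 0, while the day 0 difference of Acta2 did not pass (0.34 log2, adjusted p = 0.128) and the KO day 4 libraries alone were low. Tbx3, a T-box factor shared by naive cells and mesoderm, fell in KO, with 729.9 and 621 in KO day 4 libraries, 7560.0 and 8482 in KO day 0 libraries, 1501 and 2245 in WT day 4 libraries and 2191 and 2164 in WT day 0 libraries. Sox1, a neural factor, fell in KO (log2 change -3.91, adjusted p = 8.64e-08), and its WT day 4 libraries disagreed, at 172 and 69.0. The wider neuroectoderm list had a difference below 0 for 16 of 24 genes and above 0 for 4 (median -1.61), Six3, En1 and Lhx2 being lost. The 4 above 0 were Fgf15, which rose further in KO, Rax, which rose in KO alone by these tests, and En2 and Tubb3, which fell less in KO. DESeq2 put 2 above 0, and a filter of 50 left 16 genes, 9 of them below 0, with a median of -0.86.

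**Figure D4:**
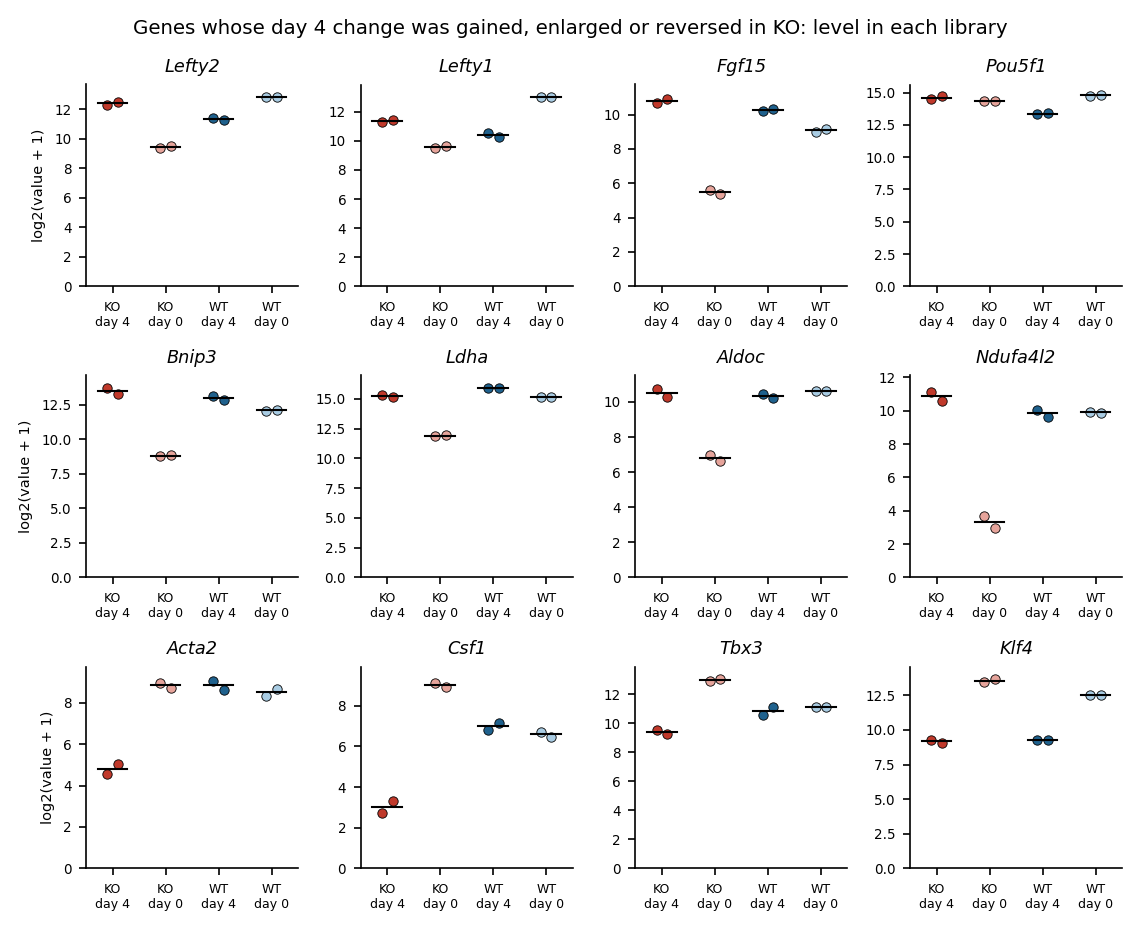
Level of 12 genes with a gained, enlarged or reversed change in KO, in each library on the log2(normalised count + 1) scale (y axis starting at 0), by group from left to right KO day 4, KO day 0, WT day 4 and WT day 0. Points are the 2 libraries of a group and the bar is their mean. KO day 0 is the lowest group for Bnip3, Ldha, Aldoc and Ndufa4l2, KO day 4 is the lowest for Acta2, Csf1 and Tbx3, and Lefty2 rises in KO while it falls in WT.

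Several falls seen in WT were lost or reversed in KO. Slc47a1, a cation exporter, had 212 and 226 normalised counts in KO day 4 libraries, 193 and 162 in KO day 0 libraries, 41.3 and 41.0 in WT day 4 libraries and 452 and 449 in WT day 0 libraries. Morc1, which silences transposons in the male germline, had 942 and 1145 in KO day 4 libraries, 1114 and 1158 in KO day 0 libraries, 636 and 677 in WT day 4 libraries and 3636 and 3620.0 in WT day 0 libraries. For both, the KO libraries of the 2 days lay close together, between the WT groups. Aass, an enzyme of lysine breakdown, rose in KO by 4.03 log2, and its KO minus WT difference at day 4 was -1.51. Spp1 and Fgf4, genes of stem cells, also rose in KO and fell in WT (2.69 and 2.38).

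Some kept changes were steep. Podxl, a surface sialomucin, rose to 10325 and 9280.0 normalised counts in KO day 4 libraries, against 659 and 620.5 in KO day 0 libraries, and to 17428 and 17272 in WT day 4 libraries, against 1228 and 1195 in WT day 0 libraries. The 95% interval of its difference of changes was -0.12 to 0.31. Trpm1, a cation channel, fell to 20.4 and 18.7 in KO day 4 libraries, against 183 and 203 in KO day 0 libraries, and to 17.3 and 20.52 in WT day 4 libraries, against 201 and 222 in WT day 0 libraries. Emp1 and Mapt, which encode a membrane protein and the tau protein, fell in both, with log2 changes of -3.18 and -3.22 in KO and -3.19 and -3.21 in WT. Psmb8, an immunoproteasome subunit, rose by 3.26 in KO and 3.15 in WT, and its KO minus WT difference was -3.09 at day 4 and -3.20 at day 0. Among cell cycle genes, 11 of 27 were kept, against 12.8% of all tested genes. Differences were above 0 for 5 of the 27 and below 0 for 7, against 27.1% and 28.6%, and edgeR and DESeq2 each gave 4 and 4.

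Where the genotypes differed was as varied as how. At day 0, 10226 genes (67.2%) differed between KO and WT, and at day 4, 8552 (56.2%). Of the 8477 genes with a called difference of changes, 3017 differed between genotypes at day 0 only, 1714 at day 4 only, 1871 at both days in 1 direction, 1737 at both days in opposite directions, and 138 at neither. T and Eomes were among those that differed at day 4 only, Rreb1 and Aldoc at day 0 only, and Kdr, Hand1, Lefty2 and Bnip3 at both days in opposite directions. Since every day 4 change is measured from its own day 0, a lost or gained call can rest on either day, and the level at each day is given above for that reason.

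**Figure D5:**
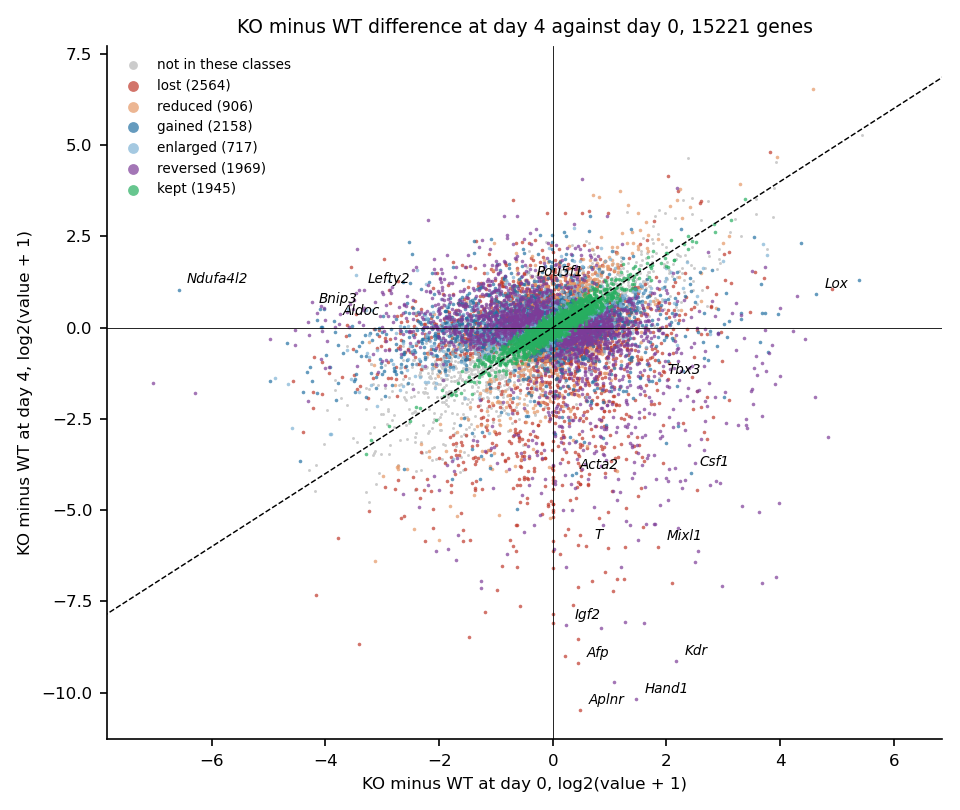
KO minus WT difference at day 4 (y axis) against the same at day 0 (x axis), both on the log2(normalised count + 1) scale, for the 15221 genes tested, coloured by class, with the dashed line where both are equal. Aplnr and T lie low near 0 on the x axis, Kdr and Hand1 lie low and to the right, and Ndufa4l2, Bnip3 and Aldoc lie far left at 1.04 or less on the y axis.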

How the data were processed

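RNA-seq of 8 embryoid body libraries was analysed from 1 deposited table of normalised counts, a signal in which the authors divided gene counts by 1 factor per library, as the file name and its values show. The submitters' processing notes give the build mm10 and name HTSeq 0.6.1p1, DESeq2 3.4, Bowtie2, HOMER and FastQC 0.11.5 without saying what each did. Per the labels' protocols, libraries came from total RNA with a TruSeq v2 kit, which does not mark strand, and single-end sequencing.

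Values are whole multiples of a step per library, 100% of them within 0.001, which gave the reads per library. Limma 3.58.1 (R 4.3.3) was fitted with trend to log2(value + 1), with 4 groups of 2 libraries and no covariate, on genes with at least 10 in at least 2 libraries. Fold changes on this scale understate those of low genes. Benjamini-Hochberg adjustment ran over all 15221 genes, at 0.05. The fit was also run on simulated counts with the same spread setting in every group. Spread between replicates differed among the real groups, so that run does not check the error rate of these calls.

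Count tests, edgeR 4.0.16 and DESeq2 1.42.0, used recovered reads of 7 libraries. WT day 0 replicate 1 was left out because its step, 0.992, lies nearest to 1. Its values were whole multiples of that step within 0.001, as in the other libraries. A gene without reads in a group was set against a floor of 3 reads over that group, which covers counting error only. The class members and the gene lists were chosen with earlier results of these data known. Named genes were, in each class and direction, the 6 or 8 with the largest difference of changes (for kept genes, the largest change) among genes averaging at least 100 with library pairs that did not overlap, and up to 8 of each list by adjusted p. Rreb1, T, Eomes, Mixl1 and Gsc were always named, and further list members were named after their values were seen. Predicted genes, 27 names turned into dates and Y-linked genes are not named. A few other genes that met the naming rule are not reported here. Alternatives were other pseudocounts, filters and scalings, the count tests, a replicate term and leaving out each library.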

Additional observations from a re-analysis of the deposited data

Results flagged for a closer look

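Results are listed here when the day 4 change differed between the genotypes by the test of the difference itself and the genotypes moved in opposite directions, or when they summarise that test. The difference of changes was called by limma for 8477 genes. For Rreb1 it was -1.23 log2, with a fall in KO and a rise in WT.

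Among genes that fell in KO and rose in WT, it was -11.64 for Hand1, -11.31 for Kdr, -10.79 for Unc5c, -10.70 for Pcdh7, -10.07 for Cdh11 and -9.69 for Rgs5. Rgs5, Unc5c and Pcdh7 each had a group with 3 reads or fewer, so their values depend on the pseudocount. Hand1 and Kdr were under 10 normalised counts in KO day 4 libraries, so the sizes of their differences depend on it too.

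Among genes that rose in KO and fell in WT, it was 5.53 for Aass, 4.57 for Sh2d5, 4.52 for Aurkc, 4.46 for Dmrtc2 and 4.44 for Lefty2. Aurkc is a germ cell kinase. It had 26.0 and 22.7 normalised counts in KO day 4 libraries and 11.03 and 2.87 in KO day 0 libraries, against 83.6 and 88.6 in WT day 4 libraries and 526 and 549 in WT day 0 libraries. Dmrtc2, a germline DM domain gene, had 75.8 and 64.1 in KO day 4 libraries and 14.4 and 10.5 in KO day 0 libraries, against 98.03 and 55.0 in WT day 4 libraries and 309 and 309 in WT day 0 libraries.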

How the results depend on the processing

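No called difference of changes turned to a call of the opposite sign under any alternative run. Class labels were less stable than signs. Of 10259 genes placed in a class, 8213 kept it with quantile normalisation and 9051 with rescaling to the same total. Fewer still kept it with edgeR and with DESeq2. With edgeR that was partly fixed in advance, because without an interval no gene of the kept class could hold its class. The class of a given gene therefore depends on the processing. The count of 8477 was 7106 to 8427 with 1 library left out, 8429 and 8626 with pseudocounts of 0.5 and 5, 7073 with edgeR and 5798 with DESeq2, of which 6984 and 5783 were shared with the limma calls. The enlarged class held 426 genes with edgeR and 332 with DESeq2, and 432 to 926 with 1 library left out. DESeq2 gave 506 reduced and 1087 reversed genes. The cause was not tested; these fits hold 7 libraries. edgeR gives no interval here, so no kept class. Rescaling libraries to the same total moved the median KO minus WT difference at day 4 to -0.106 log2, against -0.010 as reported, and quantile normalisation made 52.9% of calls positive, against 48.6%. Same-numbered libraries share only a number: their deviations correlated at -0.034 to 0.091, and a replicate block gave 8622 calls, 8428 of them shared, moving no count by over 1.5 times. Of 265 named genes, 4 lost the call with edgeR, 7 with DESeq2 and at most 2 with any 1 library left out. Levels under about 10 normalised counts rest on few reads, which limits the fold changes of genes near 0.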

Other observations

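Retinoic acid, Notch and p53 genes were described in no comparison above. In the Notch list the difference of changes was above 0 for 8 of 18 tested genes and below 0 for 8, against 27.1% and 28.6% of all tested genes. In the p53 and BCL2 family list, 16 of 20 genes were higher in KO at day 0 and 3 lower, against 33.9% and 33.3% of all tested genes, and 13 were higher at day 4 and 4 lower, against 27.8% and 28.3%. The difference of changes in that list was above 0 for 3 and below 0 for 10. In the retinoic acid list it was above 0 for 3 of 15 genes and below 0 for 7, against 27.1% and 28.6% of all tested genes; the count below 0 was 5 with edgeR and 3 with DESeq2. Cyp26a1, which breaks down retinoic acid, had 26.0 and 28.6 normalised counts in KO day 4 libraries and 18.7 and 20.1 in KO day 0 libraries, against 1102 and 1507 in WT day 4 libraries and 18.9 and 13.3 in WT day 0 libraries. Its WT day 4 libraries stood far above the other groups.

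Dazl, an RNA binding protein of germ cells, had 419.9 and 460.3 normalised counts in KO day 4 libraries and 559.8 and 568 in KO day 0 libraries, against 1216 and 1188 in WT day 4 libraries and 871 and 853 in WT day 0 libraries. Every KO library was below every WT library for Dazl.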
